A study of Homo sapiens with 12 samples.

Results

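Polyamine metabolism was described here through 10 genes: ODC1, OAZ1, OAZ2, AZIN1, AMD1, SRM, SMS, SAT1, SMOX and PAOX. A member was taken as the locus whose gene name in the deposited files held its symbol, and each of the 10 symbols matched exactly 1 of the 30574 loci. ODC1 led the choice because it had stood out among the genes that differed between BPA 2500 nM and DMSO, so its values are given as a description and without a p-value. The other 9 were added for their known roles. The cells were IOSE80, a line of immortalised cells from normal human ovarian epithelium, and all groups were kept for 28 days with bisphenol A (BPA) at 0.25 nM, BPA at 2500 nM, E2 (the usual short name of estradiol, at a dose not given in the sources used here) or 0.1% DMSO. BPA is a plastics monomer with weak oestrogenic activity. There were 3 libraries each for BPA 0.25 nM, BPA 2500 nM and DMSO and 2 for E2, and E2 replicate 3 was not analysed here. DMSO was taken as the vehicle, although the labels of the other groups name no solvent. All groups come from 1 cell line. Whether replicates were grown apart is not stated in the labels, and p-values then cover the spread between these libraries alone, which may be technical.

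Polyamines (putrescine, spermidine and spermine) are small cations that bind RNA and DNA, and growing cells need them for translation and proliferation. ODC1 makes putrescine from ornithine, AMD1 makes decarboxylated S-adenosylmethionine, and SRM and SMS use it to build spermidine and spermine. SAT1 acetylates spermidine and spermine for export or for oxidation by PAOX, and SMOX oxidises spermine directly. Antizymes (OAZ1 and OAZ2) bind ODC1 protein and send it to the proteasome, and AZIN1, a relative of ODC1 without its activity, holds antizyme away from it. Much of this control acts on translation and protein turnover, which RNA levels do not show.

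The stretch where antizyme translation shifts frame is shown because it is the point at which polyamines feed back on ODC1. A ribosome on antizyme RNA must move by +1 at the stop codon TGA, after TCC, to make the full protein, and polyamines favour that shift. The capitals mark TCCTGA in GENCODE 29 transcripts of the chromosome 19 gene OAZ1 (bases 432 to 461 of OAZ1-204) and of the chromosome 15 gene OAZ2 (bases 230 to 259 of OAZ2-209), and 29 of the 30 bases are the same in both.
OAZ1: tcggtggtgcTCCTGAtgcccctcacccac
OAZ2: tctgtggtgcTCCTGAtgcccctcacccac

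Start regions of ODC1 and SRM are shown because ODC1 is a textbook target of MYC, which binds CACGTG together with MAX. They come from the RefSeq promoter table on GRCh38.p14, which matched 7 of the 10 members (AZIN1, SMOX and PAOX had no entry), with 10 windows of 250 bases before to 50 bases after a start. CACGTG, which reads the same on both strands, TATAA (or TTATA) and GGGCGG (or CCGCCC) were searched, with overlapping matches counted. The upstream window of ODC1 (chr2:10448278-10448577, minus strand) held 1 TATAA and no CACGTG. The stretch just inside the first intron (chr2:10447963-10448120, minus strand), which is the end of a downstream start window, held 2 CACGTG. The window of SRM (chr1:11059969-11060268, minus strand) held 1. Capitals mark CACGTG and TATAA.
ODC1, upstream start: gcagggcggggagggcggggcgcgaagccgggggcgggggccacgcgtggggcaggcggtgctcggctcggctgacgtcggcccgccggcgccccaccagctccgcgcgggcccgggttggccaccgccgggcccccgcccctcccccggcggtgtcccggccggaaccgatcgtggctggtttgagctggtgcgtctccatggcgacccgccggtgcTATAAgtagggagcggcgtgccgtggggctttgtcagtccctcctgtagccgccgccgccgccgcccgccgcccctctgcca
ODC1, the first intron: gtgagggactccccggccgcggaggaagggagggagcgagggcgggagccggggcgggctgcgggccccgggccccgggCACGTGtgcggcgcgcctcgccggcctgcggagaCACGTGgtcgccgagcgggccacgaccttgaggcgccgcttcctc
SRM, start: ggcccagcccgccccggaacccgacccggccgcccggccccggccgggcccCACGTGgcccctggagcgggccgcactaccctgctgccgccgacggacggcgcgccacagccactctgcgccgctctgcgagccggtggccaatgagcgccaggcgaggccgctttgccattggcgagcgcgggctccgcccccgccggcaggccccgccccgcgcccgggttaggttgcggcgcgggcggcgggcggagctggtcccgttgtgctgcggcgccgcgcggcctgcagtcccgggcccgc

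CACGTG was found in 2 of the 10 member windows, those of ODC1 and SRM, and in 7.26% of all 35116 windows. Only 0.66% of all windows held 2 or more, as the downstream ODC1 window did. TATAA was found in 4 of the 10 member windows, those of ODC1, AMD1 and OAZ1 among them, and in 20.44% of all windows. GGGCGG was found in 9 of the 10 member windows, all but that of SAT1, and in 44.95% of all windows. These matches are descriptions of letters and show no binding.

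The authors deposited 1 FPKM value per locus and library (fragments scaled by transcript length and by library size), so levels can be set side by side between genes. Depth is unknown, and FPKM totals of 206719 to 213663 do not measure it. E2 replicate 2 stood somewhat apart, with the lowest median correlation with the other libraries (0.976 across tested loci, against 0.979 to 0.983 in the other 10). The line had VIM (687.99 FPKM on average), ALDH1A1 (109 FPKM) and KRT18 (22.8 FPKM), while 9 of 14 markers of ovarian surface epithelium were too low to be tested, WT1 among them (at most 0.01 FPKM). CDH1 of other epithelia (at most 0.02 FPKM), PTPRC of leukocytes (at most 0.01) and CDH5 of endothelium (at most 0.01) were near 0. CD68 has no level of its own here, since its locus joins 8 names, EIF4A1 among them. Of the granulosa cell markers FOXL2 stood at 5.36 to 7.70 FPKM over all libraries and AMH at 0.26 to 1.06 FPKM, and FSHR matched no locus. The summed level of 6 fibroblast markers, most of it COL3A1 and with PDGFRA in a locus shared with FIP1L1, was 36.4 to 38.9 FPKM with BPA 0.25 nM, 28.8 to 29.3 FPKM with BPA 2500 nM and 32.9 to 34.9 FPKM with E2, against 36.3 to 37.7 FPKM with DMSO, while COL1A2, DCN and LUM were at most 0.05 FPKM. The mitochondrial share of FPKM was 12.62% to 12.66% with BPA 0.25 nM, 12.9% to 13.6% with BPA 2500 nM and 12.3% and 14.0% with E2, against 13.6% to 14.3% with DMSO. The part of these shifts in the results below was not tested.

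**Figure D1:**
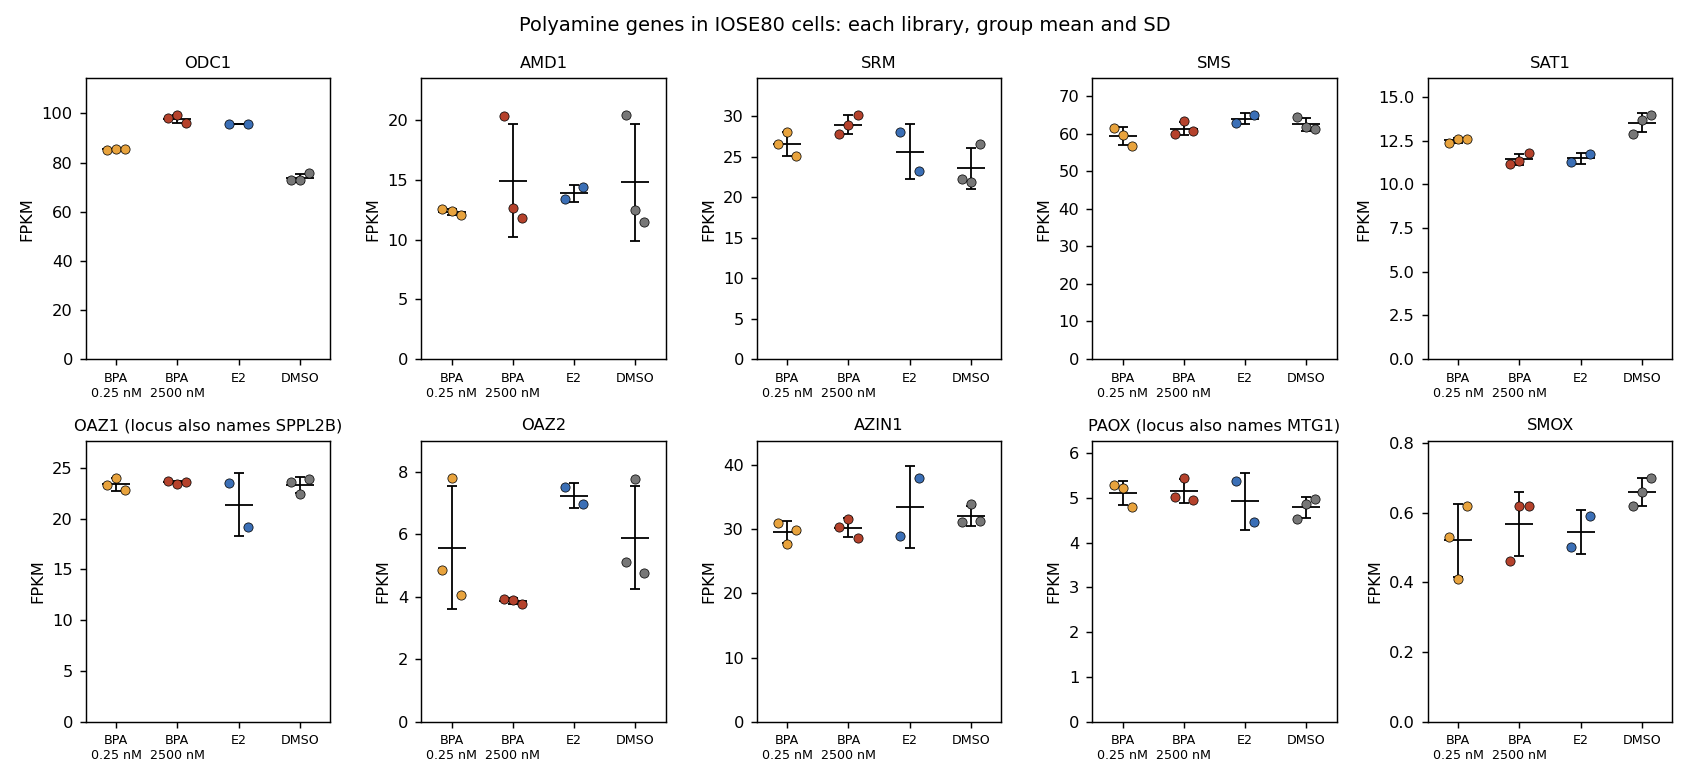
Each panel plots the FPKM of 1 member (vertical axis from 0) in every library (points), with the group mean and SD (black), for BPA 0.25 nM, BPA 2500 nM, E2 and DMSO. ODC1 separates the groups, with DMSO at 72.8 to 75.8 FPKM and BPA 2500 nM at 95.9 to 99.3 FPKM, while AMD1 and OAZ2 have high libraries inside otherwise low groups.

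ODC1 (MSTRG.10380, chromosome 2, 10439968 to 10448327, minus strand, GRCh38) was the most abundant member. It stood at 85.2, 85.5 and 85.6 FPKM with BPA 0.25 nM, at 98.1, 99.3 and 95.9 FPKM with BPA 2500 nM and at 95.8 and 95.6 FPKM with E2, against 72.9, 72.8 and 75.8 FPKM with DMSO. Every treated library lay above every DMSO library, and every library of BPA 2500 nM and E2 lay above every library of BPA 0.25 nM. The mean was 85.4 ± 0.19 FPKM for BPA 0.25 nM, 97.8 ± 1.72 FPKM for BPA 2500 nM and 95.7 ± 0.16 FPKM for E2 (n = 2), against 73.8 ± 1.70 FPKM for DMSO (SD, n = 3 where not given). These means were 15.7%, 32.4% and 29.6% above that of DMSO.

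On the log2(FPKM + 1) scale the difference of ODC1 from DMSO was 0.21 ± 0.03 (SE) for BPA 0.25 nM, 0.40 ± 0.03 for BPA 2500 nM and 0.37 ± 0.04 for E2. Between the treatments it was 0.19 ± 0.03 for BPA 2500 nM against BPA 0.25 nM and 0.16 ± 0.04 for E2 against BPA 0.25 nM. The neighbours at the top of the order, E2 and BPA 2500 nM, differed by -0.03 ± 0.04, and the gap between the lowest BPA 2500 nM library (95.93 FPKM) and the highest E2 library (95.79 FPKM) was smaller than the SD of BPA 2500 nM. A stepwise order without overlap, DMSO below BPA 0.25 nM below BPA 2500 nM, was shared by 97 of the 12182 tested loci (0.796%), and 39 of these (0.32% of the tested loci) also had E2 above BPA 0.25 nM, as ODC1 did. The 3 comparisons with DMSO share the same 3 DMSO libraries. In RNA from bulk culture, a change in how many cells hold a transcript cannot be told apart from a change per cell.

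SAT1 (MSTRG.18702, chromosome X, 23783173 to 23786226, plus strand), the acetyltransferase that starts polyamine breakdown, fell with BPA 2500 nM. It stood at 12.4, 12.6 and 12.6 FPKM with BPA 0.25 nM, at 11.2, 11.4 and 11.8 FPKM with BPA 2500 nM and at 11.3 and 11.7 FPKM with E2, against 12.9, 13.7 and 14.0 FPKM with DMSO. The DMSO libraries were the 3 highest, and those of BPA 0.25 nM came next, above all libraries of BPA 2500 nM and E2. With BPA 2500 nM the log2 change was -0.22 ± 0.04 (limma adjusted p = 0.0497), a level 15.4% below that of DMSO. The call was just inside the threshold: it held in the fits without E2 replicate 1 or 2 and was lost without any 1 of the 3 DMSO, 3 BPA 0.25 nM and 3 BPA 2500 nM libraries (highest adjusted p 0.179). With E2 the log2 change was -0.22 ± 0.05 (adjusted p = 0.0783) and with BPA 0.25 nM -0.10 ± 0.04 (adjusted p = 0.538), which did not pass. Between the BPA doses it was -0.12 ± 0.04 (adjusted p = 0.573). The stepwise falling order of DMSO, BPA 0.25 nM and BPA 2500 nM was shared by 167 tested loci (1.37%), of which 75 (0.616% of the tested loci) also had E2 below BPA 0.25 nM, as SAT1 did.

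**Figure D2:**
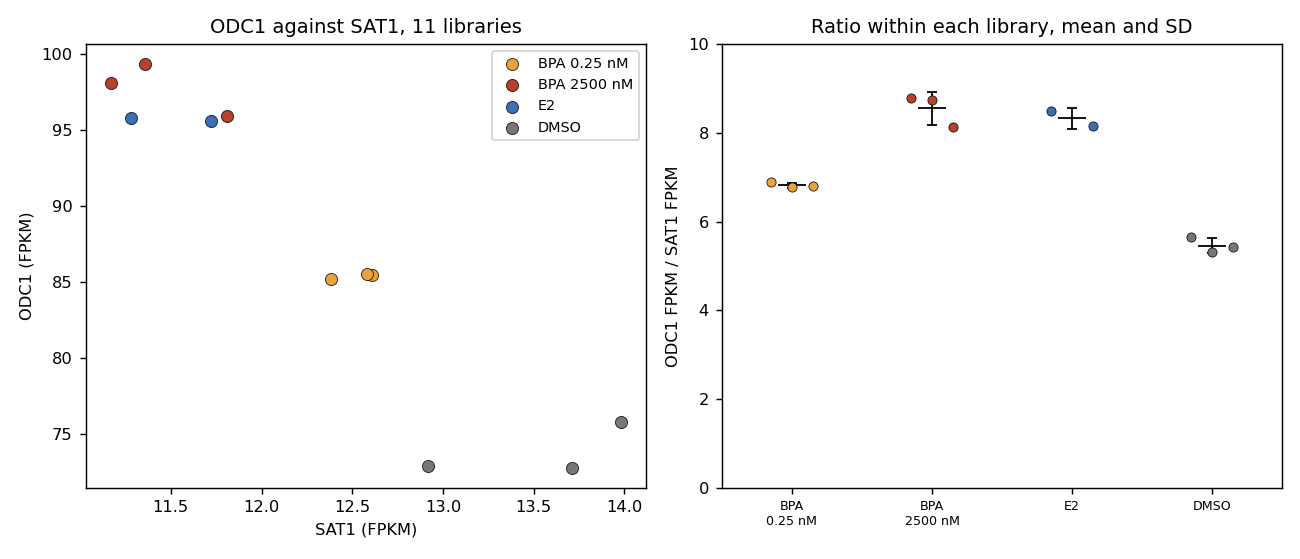
On the left, each point is 1 of 11 libraries, with SAT1 FPKM on the horizontal and ODC1 FPKM on the vertical axis (neither starts at 0), and on the right is the ratio of ODC1 to SAT1 FPKM per library with group mean and SD. The ratio was 8.12 to 8.78 with BPA 2500 nM and 5.31 to 5.64 with DMSO, and it includes the rise for which ODC1 was chosen.

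Set against each other within a library, which removes any scaling of the library, ODC1 stood 6.82 ± 0.05 times as high as SAT1 with BPA 0.25 nM, 8.55 ± 0.37 times with BPA 2500 nM and 8.32 ± 0.24 times with E2 (n = 2), against 5.46 ± 0.17 times with DMSO (SD, n = 3 where not given). Only BPA 2500 nM (8.12 to 8.78) and E2 (8.15 and 8.49) overlapped. ODC1 was chosen for its difference between BPA 2500 nM and DMSO, and that rise is built into this ratio. The ratio is therefore a description and no separate result. Over the 11 libraries Pearson r of SAT1 with ODC1 was -0.93 on the log2 scale (percentile 0.2 of tested loci). The libraries fall into the treatment groups, so this r describes the group levels.

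SRM (MSTRG.192, chromosome 1, 11054584 to 11060018, minus strand), spermidine synthase, stood at 26.6, 28.1 and 25.1 FPKM with BPA 0.25 nM, at 27.8, 28.9 and 30.2 FPKM with BPA 2500 nM and at 28.1 and 23.2 FPKM with E2, against 22.3, 21.9 and 26.5 FPKM with DMSO. The BPA 2500 nM libraries all lay above those of DMSO, while the other groups overlapped with DMSO. The log2 change was 0.29 ± 0.09 with BPA 2500 nM (limma adjusted p = 0.147), 0.17 ± 0.09 with BPA 0.25 nM (0.6) and 0.12 ± 0.10 with E2 (0.636), so none passed the threshold. Without E2 replicate 1 the E2 difference was -0.02 and without E2 replicate 2 it was 0.25. Its r with ODC1 over the libraries was 0.67 (percentile 95.5 of tested loci). For the other tested members r was 0.37 for the PAOX locus (83.2), 0.0072 for SMS (56.8), 0.0024 for AMD1 (56.4), -0.09 for AZIN1 (49.0), -0.16 for the OAZ1 locus (43.1) and -0.27 for OAZ2 (34.1).

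SMS (MSTRG.18687, chromosome X, 21940709 to 21994837, plus strand), spermine synthase, did not pass the test in any comparison. It ranged over 56.7 to 61.4 FPKM with BPA 0.25 nM, 59.9 to 63.3 with BPA 2500 nM and 62.9 to 64.9 with E2, against 61.3 to 64.4 with DMSO. The log2 difference from DMSO was -0.03 with BPA 2500 nM (95% interval -0.12 to 0.07, and 0.0042 after rescaling the libraries), -0.07 with BPA 0.25 nM (-0.17 to 0.02) and 0.03 with E2 (-0.08 to 0.14). As a share of the SMS level, SRM stood at 0.45 ± 0.02 for BPA 0.25 nM, 0.47 ± 0.02 for BPA 2500 nM and 0.40 ± 0.06 for E2 (n = 2), against 0.38 ± 0.05 for DMSO (SD, n = 3 where not given).

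AMD1 (MSTRG.16140, chromosome 6, 110874770 to 110895713, plus strand) supplies the aminopropyl donor for both synthases. It had 2 libraries far above the rest, 1 of BPA 2500 nM (replicate 1, 20.4 FPKM) and 1 of DMSO (replicate 1, 20.5 FPKM), and the other 9 lay between 11.5 and 14.4 FPKM. Its log2 difference from DMSO was -0.20 ± 0.22 for BPA 0.25 nM, 0.02 ± 0.22 for BPA 2500 nM and -0.04 ± 0.25 for E2. These values rest on the high libraries: for BPA 2500 nM against DMSO the difference was -0.21 without BPA 2500 nM replicate 1 and 0.26 without DMSO replicate 1. For BPA 0.25 nM and E2 it was 0.04 and 0.20 without DMSO replicate 1. The limma adjusted p of the 3 differences lay between 0.824 and 0.977.

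**Figure D3:**
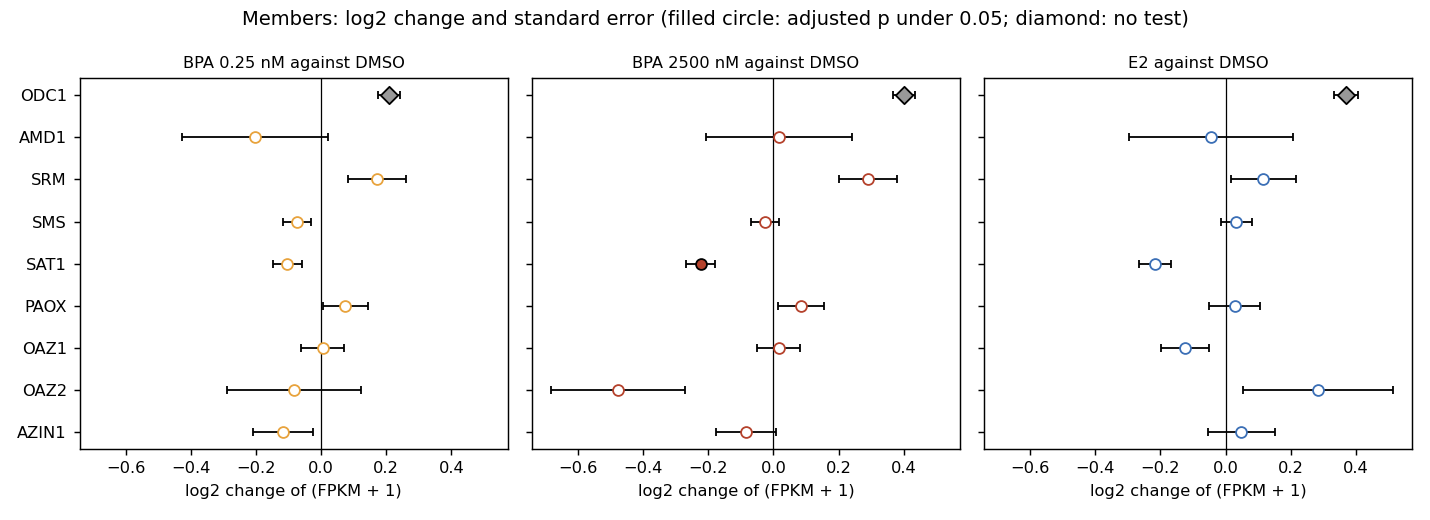
Points give the log2 change of (FPKM + 1) against DMSO (horizontal axis) of 9 tested members (rows) with BPA 0.25 nM, BPA 2500 nM and E2, and bars the standard error. ODC1 (diamonds, no test) lies at 0.21, 0.40 and 0.37, and the single filled circle is SAT1 with BPA 2500 nM at -0.22.

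Neither antizyme transcript passed the test in any comparison. The OAZ1 locus (MSTRG.9316, chromosome 19, 2269509 to 2353933, plus strand) also names the coding gene SPPL2B, so its value is a joint one and uncertain for OAZ1. It ranged over 22.8 to 24.0 FPKM with BPA 0.25 nM, 23.5 to 23.7 with BPA 2500 nM and 19.2 and 23.6 with E2, against 22.4 to 23.9 with DMSO. Its log2 difference from DMSO was 0.02 with BPA 2500 nM (95% interval -0.13 to 0.16), 0.0045 with BPA 0.25 nM (-0.14 to 0.15) and -0.12 with E2 (-0.29 to 0.04), and the E2 value was 0.02 without E2 replicate 2.

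OAZ2 (MSTRG.6306, chromosome 15, 64687573 to 64703281, minus strand) fell into a low and a high set of libraries. It stood at 4.86, 7.81 and 4.05 FPKM with BPA 0.25 nM, at 3.92, 3.91 and 3.76 FPKM with BPA 2500 nM and at 7.52 and 6.96 FPKM with E2, against 5.12, 7.78 and 4.76 FPKM with DMSO. Replicate 2 of BPA 0.25 nM and of DMSO was as high as the E2 libraries, while all libraries of BPA 2500 nM were below all others. The log2 difference from DMSO was -0.48 ± 0.21 with BPA 2500 nM (limma adjusted p = 0.279), -0.08 ± 0.21 with BPA 0.25 nM (0.94) and 0.28 ± 0.23 with E2 (0.615). Without DMSO replicate 2 these were -0.29, 0.11 and 0.47. Between E2 and BPA 2500 nM it was 0.76 ± 0.23 (adjusted p = 0.537), the widest gap of any tested member in the 6 comparisons, and it did not pass. With a pseudocount of 5 it was 0.47.

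AZIN1 (MSTRG.17746, chromosome 8, 102826308 to 102893864, minus strand), the antizyme inhibitor, stood at 27.7 to 31.0 FPKM with BPA 0.25 nM, 28.6 to 31.6 with BPA 2500 nM and 28.9 and 37.99 with E2, against 31.0 to 33.9 with DMSO. Its log2 difference from DMSO was -0.12 ± 0.09 for BPA 0.25 nM, -0.08 ± 0.09 for BPA 2500 nM and 0.05 ± 0.10 for E2 (limma adjusted p 0.676 to 0.872). The E2 value was -0.14 without E2 replicate 2 and 0.24 without E2 replicate 1. ODC1 stood at 2.90 ± 0.17 times the level of AZIN1 for BPA 0.25 nM, 3.24 ± 0.10 times for BPA 2500 nM and 2.91 ± 0.56 times for E2 (n = 2), against 2.31 ± 0.14 times for DMSO (SD, n = 3 where not given). This ratio also includes the rise for which ODC1 was chosen.

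The oxidases were low. The PAOX locus (MSTRG.2722, chromosome 10, 133379261 to 133420518, plus strand) also names the coding gene MTG1 and is uncertain for PAOX. It ranged from 4.47 to 5.45 FPKM over all libraries, and its log2 difference from DMSO was at most 0.08 (± 0.07, BPA 2500 nM, limma adjusted p = 0.562). SMOX (ENSG00000088826, chromosome 20, 4120980 to 4187747, plus strand), which oxidises spermine, was below the filter with 0.41 to 0.62 FPKM with BPA 0.25 nM, 0.46 to 0.62 with BPA 2500 nM and 0.50 and 0.59 with E2, against 0.62 to 0.70 with DMSO. It was the only member not tested.

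Counted over the 8 tested members besides ODC1, limma called 1 with BPA 2500 nM against DMSO (SAT1, lower), where 158 of 12182 loci were called (1.3%). Of these 49 were higher and 109 lower (0.895% of loci), and after rescaling the libraries 72 of 150 were higher. It called 0 with E2 against DMSO (background 0.419%, with 20 of 51 loci higher and 25 of 50 after rescaling) and 0 with BPA 0.25 nM against DMSO (0.0164%). At an unadjusted p under 0.05 there were 3, 1 and 1 of the 8 in these 3 comparisons, where the share of all loci was 17.2%, 15.4% and 9.11%. The 3 with BPA 2500 nM were SAT1, SRM and OAZ2, which were also the 3 of 8 whose libraries did not overlap with DMSO (26.6% of all loci). With E2 this held for 1 of 8, SAT1 (28.4% of all loci), and with BPA 0.25 nM for 2 of 8, SAT1 and AZIN1 (17.1%). Between the treatments 0 of the 8 were called. The background was 0.0657% for BPA 2500 nM against BPA 0.25 nM (2 of 8 loci higher, and 3 of 6 after rescaling). It was 0.0493% for E2 against BPA 0.25 nM and 0.041% for E2 against BPA 2500 nM. In each of these comparisons 1 of the 8 had an unadjusted p under 0.05. Of all 12182 loci, 951, 1531 and 1097 did so, in the same order. ODC1, for which no test is given, is left out of these counts. The other members were also chosen with earlier results of these data known. The median log2 change of the 8 was -0.01 with BPA 2500 nM, 0.03 with E2 and -0.08 with BPA 0.25 nM, beside medians of -0.03, -0.01 and 0.0006 over all tested loci.

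A wider list held 38 genes around the pathway: precursor supply, other antizyme genes, acetylation and oxidation, salvage of methylthioadenosine (the by-product of spermidine and spermine synthesis), hypusine, transport and the MYC network. Of these, 36 matched a locus and 28 were tested, the rest being too low. AOC1 and MYCN matched no locus by that name. With BPA 2500 nM against DMSO 1 of the 28 rose (ADI1) and 1 fell (SLC18B1). With E2 1 rose (ADI1) and with BPA 0.25 nM 0 were called, beside 1.3%, 0.419% and 0.0164% of all loci. At an unadjusted limma p under 0.05 there were 10, 10 and 6 of the 28, beside 17.2%, 15.4% and 9.11% of all loci. The list's median log2 change was -0.01 with BPA 2500 nM, -0.03 with E2 and 0.03 with BPA 0.25 nM, beside the medians of all loci given above. The list was written with earlier results of these data known. Its counts, and the p-values of ADI1 and its other genes below, are therefore no independent evidence.

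**Figure D4:**
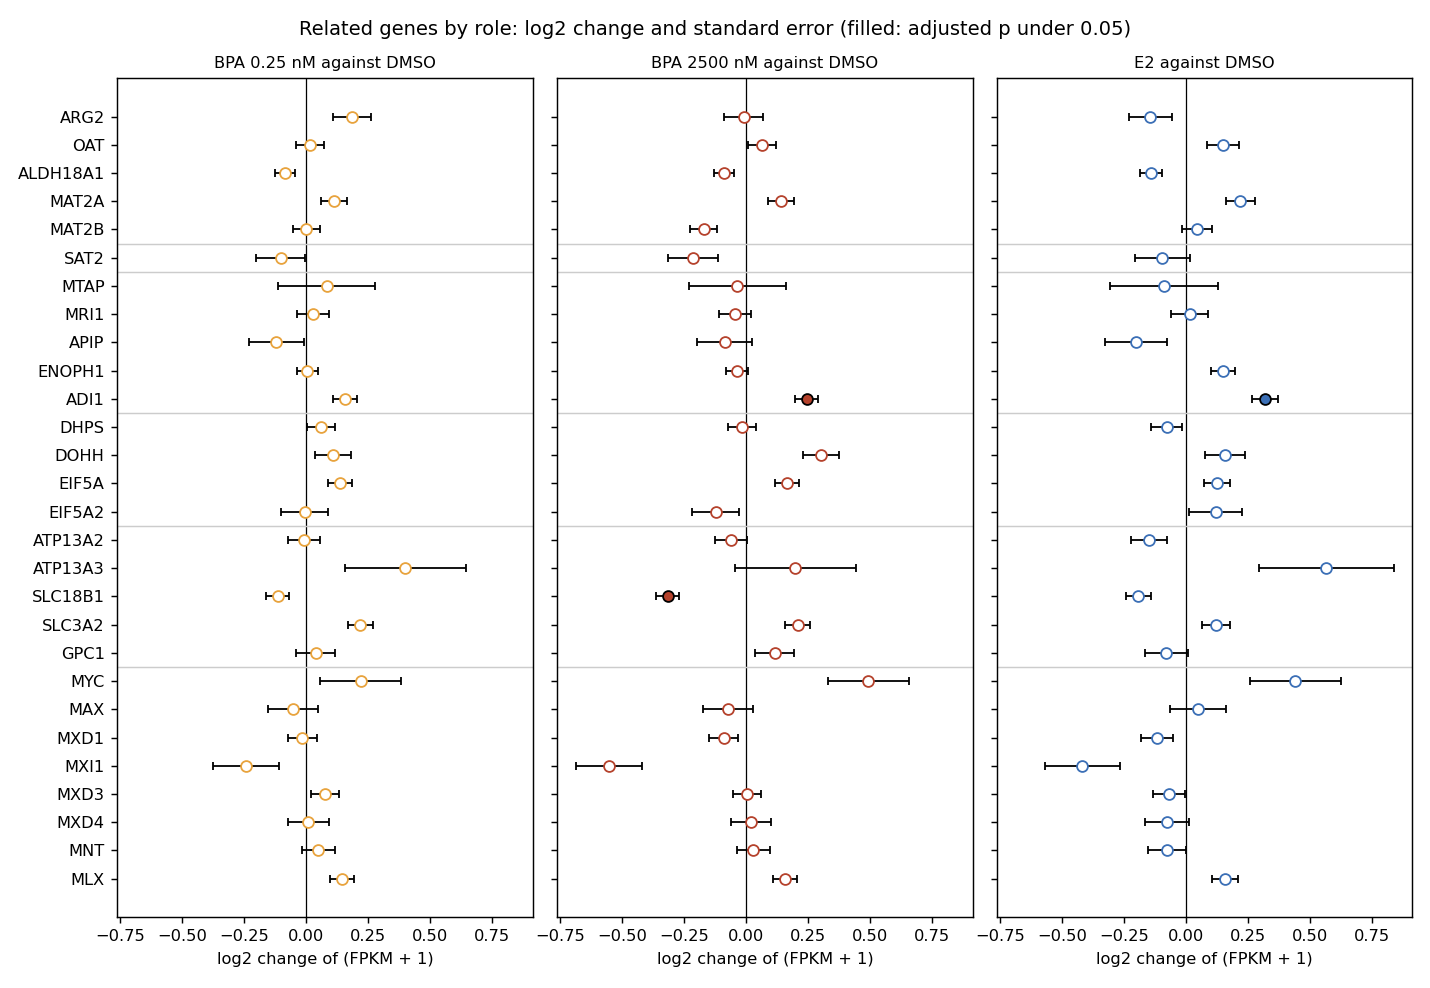
Points give the log2 change of (FPKM + 1) against DMSO (horizontal axis) of 28 related loci (rows, grouped by role between grey lines) with BPA 0.25 nM, BPA 2500 nM and E2, bars the standard error and filled points an adjusted p under 0.05. ADI1 lies at 0.24 with BPA 2500 nM and 0.32 with E2, and SLC18B1 at -0.32 with BPA 2500 nM.

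ADI1, a dioxygenase of the methionine salvage pathway that recycles methylthioadenosine, stood at 17.2, 18.0 and 18.4 FPKM with BPA 0.25 nM, at 18.9, 19.7 and 18.5 FPKM with BPA 2500 nM and at 20.8 and 19.5 FPKM with E2, against 15.3, 16.3 and 16.2 FPKM with DMSO. All treated libraries lay above all DMSO libraries, and those of BPA 2500 nM and E2, which overlapped with each other, above those of BPA 0.25 nM. ADI1 was among the 39 tested loci (0.32%) with the rising order described for ODC1. The log2 change was 0.24 ± 0.05 with BPA 2500 nM (limma adjusted p = 0.0463), 0.32 ± 0.05 with E2 (0.0438) and 0.16 ± 0.05 with BPA 0.25 nM (0.438). The call with BPA 2500 nM held without E2 replicate 1 or 2 and was lost without any 1 of the other 9 libraries (highest adjusted p 0.154). The call with E2 was lost without any 1 of the 11 (0.0629 to 0.14). Without E2 replicate 1 or 2 the lone E2 library is assumed to vary like the other groups, here and wherever an E2 library is left out. Of the other salvage genes, ENOPH1 stood at 30.3 FPKM on average with E2 against 27.2 with DMSO (adjusted p = 0.189), and MRI1, APIP and the MTAP locus, which joins several genes, had adjusted p of at least 0.499 in the 3 comparisons with DMSO.

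SLC18B1, a vesicular transporter of polyamines, fell with BPA 2500 nM. It stood at 10.2, 10.1 and 10.7 FPKM with BPA 0.25 nM, at 8.66, 9.33 and 8.70 FPKM with BPA 2500 nM and at 9.97 and 9.60 FPKM with E2, against 11.01, 11.6 and 11.4 FPKM with DMSO. No groups overlapped: BPA 2500 nM was lowest, then E2, then BPA 0.25 nM, and DMSO was highest. SLC18B1 was among the 75 tested loci (0.616%) with the falling order described for SAT1. The log2 change was -0.32 ± 0.05 with BPA 2500 nM (limma adjusted p = 0.0187), -0.19 ± 0.05 with E2 (0.125) and -0.12 ± 0.05 with BPA 0.25 nM (0.518). Leaving out any DMSO library, or replicate 1 or 3 of BPA 2500 nM, ended the call (highest adjusted p 0.094). Among the other transport genes, SLC3A2 stood at 14.1 ± 0.32 FPKM with BPA 0.25 nM and 14.0 ± 0.18 FPKM with BPA 2500 nM against 12.0 ± 0.78 FPKM with DMSO (SD, n = 3 each; limma adjusted p = 0.324 and 0.0778).

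Spermidine is also the source of hypusine, a modified lysine of the translation factor EIF5A that DHPS and DOHH make. DOHH stood at 9.99 ± 0.45 FPKM with BPA 2500 nM against 7.93 ± 0.65 FPKM with DMSO (SD, n = 3 each; log2 difference 0.30 ± 0.07, limma adjusted p = 0.0757), with no overlap. EIF5A stood at 153 ± 2.38 FPKM with BPA 2500 nM against 137 ± 7.09 FPKM with DMSO (0.16 ± 0.05, adjusted p = 0.136). The DHPS locus, which joins several genes, differed by -0.01 ± 0.06.

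In precursor supply, MAT2A, which makes S-adenosylmethionine, stood at 74.7 and 77.8 FPKM with E2 against 63.9 to 68.0 FPKM with DMSO (log2 difference 0.22 ± 0.06, limma adjusted p = 0.12). With BPA 2500 nM MAT2A differed from DMSO by 0.14 ± 0.05 (adjusted p = 0.217). MAT2B went the other way with BPA 2500 nM (-0.17 ± 0.05, adjusted p = 0.161) and differed by 0.04 ± 0.06 with E2 (0.792). ALDH18A1, which makes the precursor of proline and ornithine, stood at 34.0 and 33.5 FPKM with E2 against 35.9 to 38.9 FPKM with DMSO (-0.14 ± 0.04, adjusted p = 0.179). In the MYC network no locus passed. MLX stood at 21.4 to 22.6 FPKM with BPA 2500 nM against 18.8 to 20.6 FPKM with DMSO. Its log2 difference was 0.16 ± 0.05 (limma adjusted p = 0.139), and with E2 0.16 ± 0.05 (0.197). Its p-values were smaller than those of MYC. MAX differed by -0.07 ± 0.10 with BPA 2500 nM (0.752). MYC stood at 3.86 to 4.20 FPKM with BPA 2500 nM and 3.56 and 4.26 FPKM with E2 against 1.76 to 3.31 FPKM with DMSO (log2 differences 0.49 ± 0.16 and 0.44 ± 0.18, adjusted p = 0.176 and 0.295). Without DMSO replicate 3 these differences were 0.30 and 0.25, and with a pseudocount of 5 they were 0.25 and 0.22. MXI1, an antagonist of MYC, stood at 0.32 to 0.83 FPKM with BPA 2500 nM against 1.26 to 1.45 FPKM with DMSO (-0.55 ± 0.13, adjusted p = 0.0799). At this low level the difference rests on the pseudocount: it was -1.09 with 0.1 and -0.18 with 5. The other antagonists on the list differed by -0.09 ± 0.06 (MXD1), 0.0046 ± 0.06 (MXD3), 0.02 ± 0.08 (MXD4) and 0.03 ± 0.07 (MNT) with BPA 2500 nM, and the MXD1 and MXD3 loci join other genes.

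The loci whose levels followed ODC1 most closely over the 11 libraries were ranked by Pearson r on the log2 scale among 5426 loci that name 1 gene and average at least 5 FPKM. The 6 highest were KIF1C (r = 0.98), NOP16 (0.98), KIF4A (0.97), HNRNPM (0.96), PLK2 (0.96) and LRRC59 (0.95). KIF1C and KIF4A encode kinesin motors, NOP16 a nucleolar protein, HNRNPM an RNA-binding protein, PLK2 a polo-like kinase and LRRC59 a protein of the endoplasmic reticulum. The 4 lowest were SLC17A5 (-0.97), a lysosomal sialic acid transporter, PNRC1 (-0.97), a nuclear receptor coregulator, ZMYND8 (-0.96), a chromatin reader, and IFIT1 (-0.96), an interferon-induced gene. KIF1C stood at 22.3 to 23.0 FPKM with BPA 2500 nM against 17.6 to 18.7 FPKM with DMSO, and SLC17A5 at 6.60 to 6.92 FPKM with BPA 2500 nM against 8.99 to 9.49 FPKM with DMSO. The points share libraries and groups, so the ranking is a description.

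**Figure D5:**
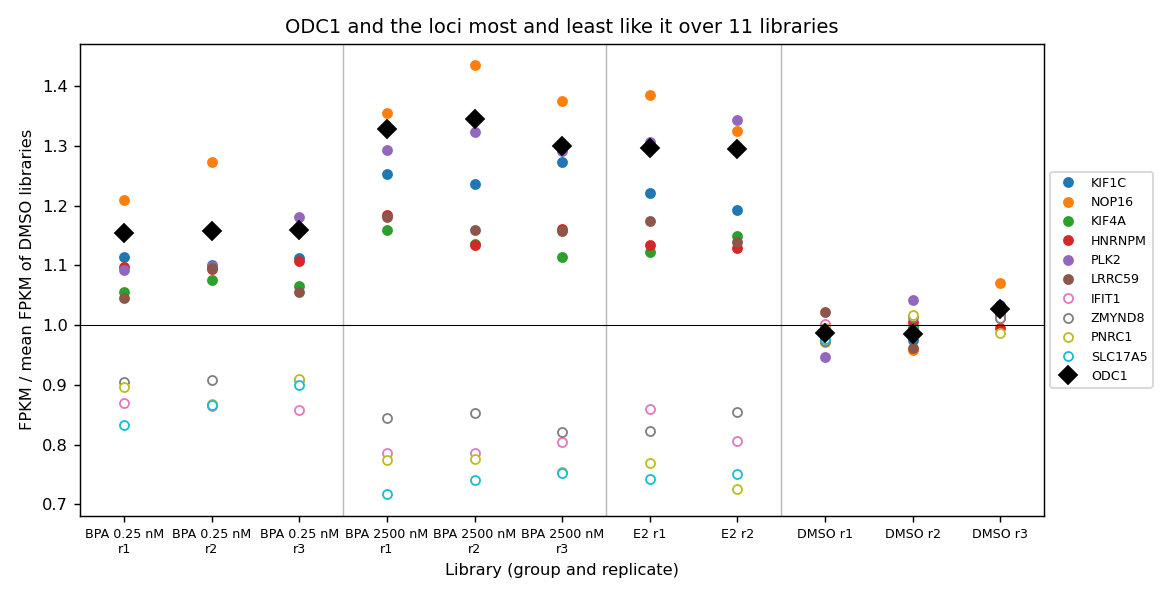
For each library (horizontal axis), the level of ODC1 (diamonds), of the 6 loci most like it (filled) and of the 4 most unlike it (open) is plotted relative to the mean of the DMSO libraries (vertical axis, not from 0). ODC1 and the like loci lie above 1 in all treated libraries and the unlike loci below 1, which follows from picking them by r with ODC1 over these same libraries.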

How the data were processed

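The 11 IOSE80 libraries hold total RNA isolated with Trizol and read on a NovaSeq 6000 (Illumina), per the labels' protocols. The authors deposited FPKM values with 2 decimals. The submitters' processing notes name StringTie, HISAT, edgeR and UMI-tools, without versions or order, and hg19. Positions in the files nevertheless follow GRCh38: 74.8% of 14142 Ensembl loci had the start and end of GENCODE 29. The strand setting was not stated.

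From the FPKM values, log2(FPKM + 1) was computed, which understates the change of low genes. The 12182 loci with at least 1 FPKM in at least 2 libraries were fitted with limma 3.58.1 in R 4.3.3 (1 mean per group, all 11 libraries, trend and robust, statmod 1.5.0, 7 residual degrees of freedom). Tests were two-sided with Benjamini-Hochberg adjustment over all tested loci in each of the 6 comparisons separately, and an adjusted p under 0.05 made a call. Precision comes from the spread between libraries. The calling was tested on simulated data. Members and lists were chosen with earlier results of these data known. Of the wider list, called loci were named, and for each comparison with DMSO the 2 smallest p-values per direction. ENOPH1, MTAP, MRI1, APIP, EIF5A, DHPS, MAT2B, MYC, MAX, MLX, MXD1, MXD3, MXD4 and MNT were named after their values were seen, for their roles. The ODC1-like loci leave out clone and antisense symbols. Plots were drawn with matplotlib 3.10.9 under Python 3.11.15.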

Additional observations from a re-analysis of the deposited data

How the results depend on the processing

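Depth is unknown, and the number of libraries limits precision, above all for E2 with 2. In the single-gene log2 changes, ODC1 included, 1700 alternatives kept direction and side of the threshold, 53 were no longer called and 52 changed sign. Nearly all of the 1700 concern changes not called in the main fit, so they say little about the calls. Among alternatives other than leaving out 1 library, the call with BPA 2500 nM held in 3 of 9 for SAT1 and 6 of 9 for SLC18B1. For ADI1 it held in 5 of 9 with BPA 2500 nM and in 4 of 8 with E2. The cause of lost calls and changed signs was not tested unless given here. SAT1 with BPA 2500 nM against DMSO was no longer called with a pseudocount of 0.1 (adjusted p = 0.0519), without a filter on low levels (0.115), after rescaling by the median of ratios (0.0746), in a fit of only the groups compared (0.112) or with no trend or robust setting (0.058). Rescaling moved the median of all loci by at most 0.03. It turned SAT1 for E2 against BPA 2500 nM to -0.0097 and, for BPA 2500 nM against DMSO, SMS to 0.0042 and the DHPS locus to 0.0155. Leaving ODC1 aside, for which no test is given, SAT1 was the only member called in any comparison. The wider list's 2 calls with BPA 2500 nM fell to 0 without the filter and with only the groups compared and to 1 with no trend or robust setting, and its 1 call with E2 fell to 0 under the same 3.

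For loci called over the whole table, BPA 0.25 nM against DMSO (2) gave 0 at a mean FPKM of at least 5, 1 after rescaling, 9 with only the groups compared and 1 with no trend or robust setting. BPA 2500 nM against DMSO (158) gave 39 with no filter, 102 at a mean of at least 5, 13 with only the groups compared and 251 when the E2 libraries were left out, an alternative chosen after seeing the data. BPA 2500 nM against BPA 0.25 nM (8) gave 3 with only the groups compared, 3 with no trend or robust setting and 2 without the E2 libraries. E2 against DMSO (51) gave 33 with no filter and 2 with only the groups compared, E2 against BPA 0.25 nM (6) gave 23 with no filter, and E2 against BPA 2500 nM (5) gave 19 with no filter and 3 with only the groups compared. Fits of only the groups compared have fewer samples.

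Whether the replicate numbers pair the samples is not stated in the labels. Deviations from the group means, over tested loci, correlated at -0.117 to 0.164 in 15 same-numbered pairs (median -0.006). The median was 0.0105 for the other 30 pairs. With 2 or 3 libraries per group these values cannot exclude a pairing. With the replicate block, calls came to 1 for BPA 0.25 nM against DMSO, 38 for BPA 2500 nM against DMSO, 5 for E2 against DMSO, 3 for BPA 2500 nM against BPA 0.25 nM and 3 for E2 against BPA 0.25 nM. With the replicate block SAT1 was no longer called with BPA 2500 nM against DMSO (limma adjusted p = 0.0857). The wider list then had 0 calls with BPA 2500 nM and 0 with E2.

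Leaving out 1 library gave 0 to 9 called loci for BPA 0.25 nM against DMSO, 32 to 251 for BPA 2500 nM against DMSO, 7 to 190 for E2 against DMSO, 2 to 7 for BPA 2500 nM against BPA 0.25 nM, 2 to 213 for E2 against BPA 0.25 nM and 4 to 57 for E2 against BPA 2500 nM. What became of the calls of SAT1, ADI1 and SLC18B1 when a library was left out is given above. For AMD1 the log2 changes that turned sign ranged over -0.3521 to 0.0374 for BPA 0.25 nM against DMSO, -0.0084 to 0.3579 for BPA 2500 nM against BPA 0.25 nM, -0.2125 to 0.2591 for BPA 2500 nM against DMSO, -0.1982 to 0.1682 for E2 against BPA 2500 nM and -0.1923 to 0.1972 for E2 against DMSO. For AZIN1 the log2 changes that turned sign ranged over -0.011 to 0.0689 for BPA 2500 nM against BPA 0.25 nM, -0.0257 to 0.3563 for E2 against BPA 0.25 nM, -0.0586 to 0.3234 for E2 against BPA 2500 nM and -0.1428 to 0.2392 for E2 against DMSO. For OAZ1 the log2 changes that turned sign ranged over -0.021 to 0.022 for BPA 0.25 nM against DMSO, -0.0047 to 0.0313 for BPA 2500 nM against BPA 0.25 nM, -0.009 to 0.0341 for BPA 2500 nM against DMSO, -0.2695 to 0.0111 for E2 against BPA 0.25 nM and -0.265 to 0.0156 for E2 against DMSO. For OAZ2 the log2 changes that turned sign ranged over -0.3143 to 0.1056 for BPA 0.25 nM against DMSO. For PAOX the log2 changes that turned sign ranged over -0.0269 to 0.0317 for BPA 2500 nM against BPA 0.25 nM, -0.1563 to 0.0634 for E2 against BPA 0.25 nM, -0.1666 to 0.0532 for E2 against BPA 2500 nM and -0.0821 to 0.1377 for E2 against DMSO. For SAT1 the log2 changes that turned sign ranged over -0.0191 to 0.0317 for E2 against BPA 2500 nM. For SRM the log2 changes that turned sign ranged over -0.1873 to 0.0777 for E2 against BPA 0.25 nM and -0.0165 to 0.2486 for E2 against DMSO. Among the related genes the same held for APIP (-0.421 to 0.0224 for E2 against DMSO), MRI1 (-0.0194 to 0.0823 for BPA 0.25 nM and -0.0513 to 0.0821 for E2 against DMSO) and the MTAP locus (-0.129 to 0.257, -0.1245 to 0.1391 and -0.1774 to 0.0862 for BPA 0.25 nM, BPA 2500 nM and E2 against DMSO). With BPA 2500 nM against DMSO it held for DHPS (-0.0555 to 0.0412), MXD3 (-0.0252 to 0.0255) and MXD4 (-0.028 to 0.1012). Where a fit leaves out an E2 library, the other one is assumed to vary like the other groups. The planned sum over several loci of 1 symbol was not run, since every member has 1 locus.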
